A study of Homo sapiens with 17 samples.

Results

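The regions described here are 1829 shared sites of SOX2, of a SOX2-FOXA2 CTD fusion and of full-length FOXA1 or FOXA2 in U2OS cells, a human osteosarcoma line. They were chosen from peak lists: each is a SOX2 peak of the first replicate on chromosomes 1 to 22 or X that overlaps, by at least 1 bp, a fusion peak of the first replicate and a peak of the combined FOXA1 or FOXA2 full-length list. A stretch on chromosome 1 and another on chromosome 13 were left out. The shared sites make up 13.4% of the 13677 SOX2 peaks considered (Wilson 95% interval 12.8 to 14.0). Of the remaining SOX2 peaks, 8414 overlapped a fusion peak and no FOXA1 or FOXA2 peak, 783 overlapped FOXA1 or FOXA2 and no fusion peak, and 2651 overlapped none of these. Every factor was expressed in a cell line of its own, so the sites are shared between lines, and occupancy of a site by several factors in the same cells was not measured.

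The study mapped Flag-tagged factors by ChIP-seq, in which chromatin crosslinked to a tagged protein is pulled down with an antibody and sequenced. Each factor was expressed from a Tet-on construct, which doxycycline switches on; all lines used here received doxycycline for 4 days, at 500 ng/ml by the treatment labels. The 8 groups with a factor were FOXA1, FOXA2 and FOXA3 at full length and with the CTD deleted, SOX2 at full length, and SOX2 fused to the CTD of FOXA2. Each had 2 replicates, and 1 input sample completes the 17 samples. Since the Flag tag sits on the induced protein, the lists describe induced protein in an osteosarcoma line.

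FOXA proteins are forkhead factors and SOX2 is an HMG-box factor. Both families are known as pioneer factors, proteins that can recognise their DNA motif on nucleosomes in closed chromatin. FOXA factors open liver, gut and other endodermal enhancers, while SOX2 acts in pluripotent and neural progenitor cells. A forkhead domain contacts the major groove of DNA, and an HMG box bends DNA from the minor groove. The C-terminal domain of FOXA2 lies outside its forkhead domain, so the fusion carries the DNA-binding domain of SOX2 and a FOXA2 region that does not itself read the forkhead motif.

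The first-replicate SOX2 list is permissive, and the shared sites inherit this. The values given per peak are the authors': a fold enrichment, which divides the signal by the background around it, a −log10 p, and a −log10 q, where q is a p corrected for many tests. Among the shared sites 958 (52.4%) had a SOX2 −log10 q of 0, 189 had a q of at most 0.01 (10.3%) and 49 a q of at most 1e-05 (2.68%). At SOX2 and fusion sites without FOXA the last of these shares was 0.915%, and over all SOX2 peaks it was 0.994%. Read depth is unknown, each group has 1 combined list, and the combined lists end at different limits of IDR, the irreproducible discovery rate between replicates. The weakest peak had an IDR of 0.20 in the FOXA1 full-length list, 0.0501 in the FOXA1 CTD-deleted list, 0.351 in the FOXA2 full-length list and 0.25 in the FOXA2 CTD-deleted list. All intervals below therefore cover counting error over regions only, and the spread between libraries is not in them.

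Of the shared sites 70 overlapped a promoter window of a protein-coding gene in the RefSeq table of GRCh38.p14, which spans 250 bases before a transcription start and 50 from it on. The 250 bases before the start are shown for the 4 that rank highest by the lower of the SOX2 and fusion fold enrichments, MTF2, LGSN, HDAC9 and ADRM1, and for the SOX family genes SOX5 and SOX6, because here the sequence under a shared site can be read. MTF2, a Polycomb accessory protein, has the stretch at chr1:93079033-93079282 on the plus strand. The LGSN stretch, of the gene for a lens protein, is at chr6:63319984-63320233 on the minus strand. HDAC9, a histone deacetylase, has its stretch at chr7:18509020-18509269 on the plus strand. The stretch of ADRM1, a ubiquitin receptor of the proteasome, is at chr20:62302646-62302895 on the plus strand. Those of SOX5 and SOX6, a pair of related SOX factors that lack an activation domain of their own, are at chr12:24562492-24562741 and chr11:16356547-16356796, both on the minus strand. Sequences run 5′ to 3′ on the strand of the gene. Capitals mark letter matches, on either strand, to forkhead letters (TGTTTAC or TATTTAC or TGTTTGC), SOX letters (ACAATG or ACAAAG), AP-1 letters (TGAGTCA) or TEAD letters (GGAATG).
MTF2: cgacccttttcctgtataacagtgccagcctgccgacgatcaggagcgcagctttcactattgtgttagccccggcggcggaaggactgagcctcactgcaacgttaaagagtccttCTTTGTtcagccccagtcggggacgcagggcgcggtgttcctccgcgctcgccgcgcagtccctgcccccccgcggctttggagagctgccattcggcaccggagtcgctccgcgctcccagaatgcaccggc
LGSN: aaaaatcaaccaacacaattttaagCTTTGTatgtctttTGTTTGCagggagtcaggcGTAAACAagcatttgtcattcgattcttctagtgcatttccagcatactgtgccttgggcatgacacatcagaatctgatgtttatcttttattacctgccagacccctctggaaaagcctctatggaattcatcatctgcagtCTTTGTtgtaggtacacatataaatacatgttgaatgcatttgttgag
HDAC9: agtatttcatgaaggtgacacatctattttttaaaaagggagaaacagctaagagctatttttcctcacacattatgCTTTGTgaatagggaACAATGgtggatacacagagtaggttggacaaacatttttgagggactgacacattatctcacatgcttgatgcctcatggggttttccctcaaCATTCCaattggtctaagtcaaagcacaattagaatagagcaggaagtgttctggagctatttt
ADRM1: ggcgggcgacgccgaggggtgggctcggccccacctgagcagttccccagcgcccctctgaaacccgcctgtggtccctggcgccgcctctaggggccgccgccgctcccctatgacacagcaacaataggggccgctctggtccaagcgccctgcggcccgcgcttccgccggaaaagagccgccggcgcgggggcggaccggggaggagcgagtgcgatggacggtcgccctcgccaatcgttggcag
SOX5: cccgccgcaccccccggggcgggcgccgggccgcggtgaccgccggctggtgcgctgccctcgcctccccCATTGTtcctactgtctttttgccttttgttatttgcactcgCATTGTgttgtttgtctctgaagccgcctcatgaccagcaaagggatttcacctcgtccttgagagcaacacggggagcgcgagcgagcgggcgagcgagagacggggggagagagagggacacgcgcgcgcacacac
SOX6: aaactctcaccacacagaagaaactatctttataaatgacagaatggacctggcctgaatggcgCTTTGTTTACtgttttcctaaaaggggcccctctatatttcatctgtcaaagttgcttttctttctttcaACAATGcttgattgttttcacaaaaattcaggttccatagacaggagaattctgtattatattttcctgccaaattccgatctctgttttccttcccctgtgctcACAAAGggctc
The LGSN stretch holds 2 forkhead and 2 SOX matches, and that of SOX6 holds 1 forkhead and 3 SOX matches, of which 1 SOX match overlaps the forkhead match. The HDAC9 stretch has 2 SOX matches and 1 TEAD match, the SOX5 stretch 2 SOX matches and the MTF2 stretch 1 SOX match. In the stretch of ADRM1 none of these letters was found.

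These promoter sites differed in which factors were listed there. At MTF2 the SOX2 fold enrichment was 5.08, that of the fusion was 13.1, and full-length FOXA1 and FOXA2 peaks were listed at a −log10 p of 3.24 and 5.25; for combined lists this is the lower value of both replicates. The LGSN site had a SOX2 fold enrichment of 4.99 and a fusion fold enrichment of 8.16, with a FOXA2 peak at a −log10 p of 2.23 and none of FOXA1. At HDAC9 these were 4.91 for SOX2, 5.51 for the fusion and a FOXA2 −log10 p of 1.88. The ADRM1 site had 4.72 for SOX2 and 5.98 for the fusion, and FOXA1 stood there at a −log10 p of 7.35, FOXA2 at 3.84 and CTD-deleted FOXA2 at 2.36. At SOX5 the SOX2 value was 3.64 and the fusion value 4.97, with FOXA1 at a −log10 p of 4.99 and CTD-deleted FOXA2 at 2.71. The SOX6 site had a SOX2 fold enrichment of 3.52 and a fusion fold enrichment of 3.47. There FOXA1 was listed at full length (−log10 p 3.57) and with its CTD deleted (4.44), as was FOXA2 (1.74 and 2.80). Thus the fusion stood above SOX2 at 5 of these 6 promoters, most at MTF2, and at SOX6 both were nearly equal.

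Over all promoter windows under a shared site, 13 of 90 held a forkhead match (14.4%, 8.64 to 23.2), against 7.98% of the 22012 windows in the table. Under SOX2 and fusion sites without FOXA it was 3 of 68 windows (4.41%, 1.51 to 12.2), and this interval overlaps that of the shared sites. A SOX match was found in 35 of 90 windows at shared sites (38.9%, 29.5 to 49.2), in 33 of 68 at sites without FOXA (48.5%) and in 20.2% of all windows. AP-1 letters were in 4 of the 90 windows (4.44%, 1.74 to 10.9), in 9 of 68 at sites without FOXA (13.2%, 7.12 to 23.3) and in 4.02% of all. TEAD letters were in 10 of the 90 (11.1%), in 10 of 68 at sites without FOXA (14.7%) and in 12.2% of all. Windows at shared sites thus held forkhead and SOX letters more often than the whole table, while AP-1 and TEAD letters were near their share in it. The 90 windows belong to 75 genes. Windows of one gene can overlap, so they are fewer than 90 independent sequences, while the intervals count all 90. The median GC content was 61.3% at shared sites and 62.3% over the table.

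The median SOX2 enrichment at the shared sites equalled that of SOX2 peaks which the fusion also held elsewhere, although more of the shared sites had a low q: 10.3% against 5.69% were at a q of at most 0.01. The SOX2 fold enrichment had a median of 3.31 (95% interval of the median 3.27 to 3.32) and ranged from 1.60 to 8.92, and at the 8414 SOX2 and fusion sites without FOXA the median was also 3.31. SOX2 peaks outside the fusion list were lower, with medians of 2.92 where FOXA was listed and 2.89 where it was not. Fusion fold enrichment had a median of 3.68 (3.61 to 3.69) at shared sites, against 3.92 without FOXA. The log2 ratio of fusion to SOX2 had a median of 0.16 (0.13 to 0.16) at shared sites and 0.24 (0.23 to 0.24) without FOXA, and the fusion was above SOX2 at 65.6% and 71.4% of them. The 2 intervals of the ratio do not overlap, but each side is 1 library and the ratio also moves with depth and local background. These values come from the lists that chose the sites and are given as a description.

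**Figure D1:**
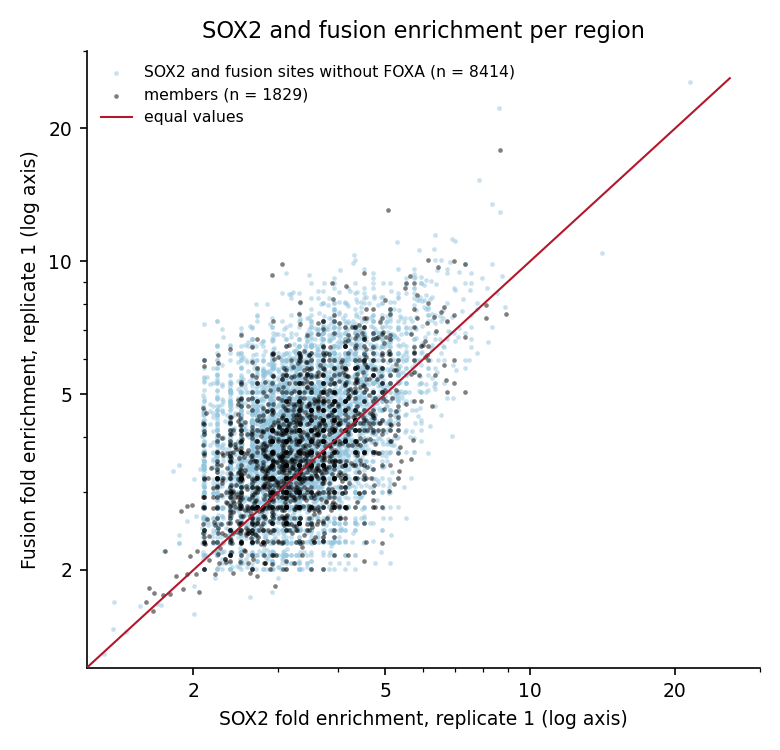
Fold enrichment of the first-replicate fusion list (y, log axis) against that of the first-replicate SOX2 list (x, log axis), 1 point per region, for 1829 shared sites (members, black) and 8414 SOX2 and fusion sites without FOXA (blue). Shared sites lie within the wider range of the other sites and reach 8.92 for SOX2 and 17.9 for the fusion, against 21.5 and 25.5, and most points lie above the line of equal values.

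At the extremes of this ratio stood a site at chr4:32429137-32429633, 1282418 bp from PCDH7, with a SOX2 fold enrichment of 3.06 and a fusion fold enrichment of 9.85 (log2 ratio 1.69), and a site within SGMS1, a sphingomyelin synthase gene, at chr10:50510823-50511677 with 2.91 and 9.32 (1.68). The lowest ratios were at chr9:63406991-63407194, with 4.52 for SOX2 and 2.10 for the fusion (log2 ratio −1.11), and within SEMA3A, a guidance cue of axons, at chr7:84412088-84412653, with 4.93 and 2.31 (−1.09). The SEMA3A site was listed for both FOXA2 forms, for the CTD-deleted FOXA1 and for both FOXA3 forms, so a low fusion value went with 5 of the 6 FOXA lists there. Its FOXA3 entries have the same −log10 p in both forms, 8.61, and most peaks of the FOXA3 lists are the same.

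The choice required the SOX2 peak to overlap a fusion peak and a FOXA peak, so short summit distances follow from it. They are given as a description. The distance between SOX2 and fusion summits had a median of 71 bp (66 to 74) at shared sites and 74 bp at sites without FOXA, and 63.5% and 62.0% were within 100 bp. The distance from the SOX2 summit to the summit of the strongest overlapping FOXA site was larger, with a median of 106 bp (98 to 114), and 48.1% were within 100 bp. FOXA1 summits were farther away than FOXA2 summits, at medians of 139 bp (119 to 151) over 850 sites and 96 bp (90 to 106) over 1518 sites. Outside the longest interval without an annotated gene on each chromosome, the median to the strongest FOXA site was 135 bp (123 to 142). Of the 282 shared sites in those intervals 275 were FOXA2-only, and the distances of FOXA1 and FOXA2 were not compared without them. FOXA1 peaks were also the wider ones, with median widths of 699 bp over the list against 578 bp for FOXA2 and 306 bp for SOX2, so these distances carry the resolution of each list. At a q of at most 1e-05 for SOX2 and the fusion and an IDR of at most 0.05 for FOXA, 23 of 136 SOX2 peaks were shared sites (16.9%). In these 23 the medians were 12 bp to the fusion and 11 bp to FOXA. How many of the 23 lie in the intervals without an annotated gene is not given. These medians therefore cannot be read as distances at strong sites outside those intervals.

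**Figure D2:**
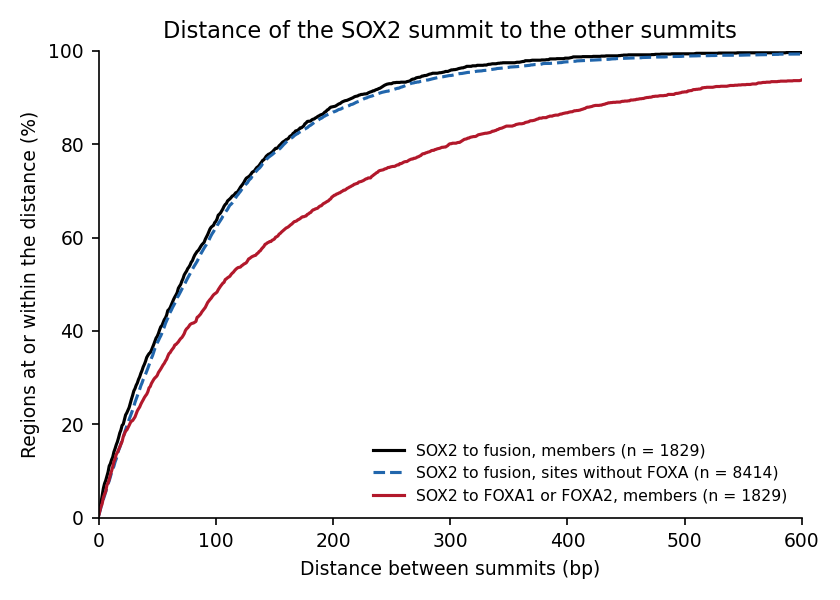
Cumulative share of regions (y, %) by the distance between the SOX2 summit and another summit (x, bp): fusion at shared sites (members, black line), fusion at SOX2 and fusion sites without FOXA (blue dashed) and FOXA1 or FOXA2 at shared sites (red). The fusion curves nearly coincide, reaching 63.5% and 62.0% at 100 bp, where the FOXA curve reaches 48.1%.

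Turning to the FOXA factors, the FOXA2 list supplied most of the shared sites. FOXA2 at full length overlapped 1518 of them (83.0%), and its list overlapped 15.9% of all SOX2 peaks. FOXA1 at full length overlapped 850 (46.5%), and its list 8.4% of all SOX2 peaks. Both shares follow from the choice of sites. FOXA2 alone stood at 979 sites (53.5%, 51.2 to 55.8), FOXA1 alone at 311 (17.0%, 15.4 to 18.8) and both at 539 (29.5%, 27.4 to 31.6). Among the 60760 merged FOXA1 and FOXA2 sites that no SOX2 peak overlapped, these shares were 41.9%, 30.9% and 27.2%. FOXA1-only sites were therefore a smaller part of the shared sites than of the other FOXA sites, and FOXA2-only sites a larger part. Outside the longest interval without an annotated gene on each chromosome, the FOXA2-only shares were closer, at 45.5% (43.0 to 48.0) of 1547 shared sites and 40.6% of other FOXA sites. There FOXA1-only sites made up 20.0% and 31.7%, and sites of both 34.5% and 27.8%.

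FOXA peaks at shared sites were somewhat stronger and wider than other FOXA peaks. The lower −log10 p of both replicates had a median of 4.33 (4.12 to 4.35) for 844 FOXA1 peaks at shared sites and 4.08 for 35415 FOXA1 peaks without SOX2. For FOXA2 the medians were 2.46 (2.43 to 2.70) for 1510 peaks and 2.20 for 42130. Median widths were 812 bp against 695 bp for FOXA1 and 667 bp against 574 bp for FOXA2. A wide peak is more likely to be overlapped by any list, and the part of width in the shares below was not tested.

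The 4 FOXA lists that the choice did not use are those of CTD-deleted FOXA1, CTD-deleted FOXA2 and both forms of FOXA3. FOXA2 with its CTD deleted was listed at 1211 of the 1829 (66.2%, 64.0 to 68.3), and at 17.9% of all SOX2 peaks. FOXA1 with its CTD deleted was listed at 931 (50.9%, 48.6 to 53.2), and at 12.9% of all SOX2 peaks. A CTD-deleted FOXA1 or FOXA2 stood at 1404 shared sites (76.8%), both stood at 738, and neither at 425. Full-length FOXA3 was listed at 327 shared sites (17.9%, 16.2 to 19.7), and at 3.66% of all SOX2 peaks. CTD-deleted FOXA3 was listed at 343 (18.8%, 17.0 to 20.6), and at 3.88% of all SOX2 peaks. The FOXA3 lists are not independent of each other: 4807 of 6008 CTD-deleted peaks have the start, end and −log10 p of a peak in the full-length list, as do those at 265 of these 343 sites.

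**Figure D3:**
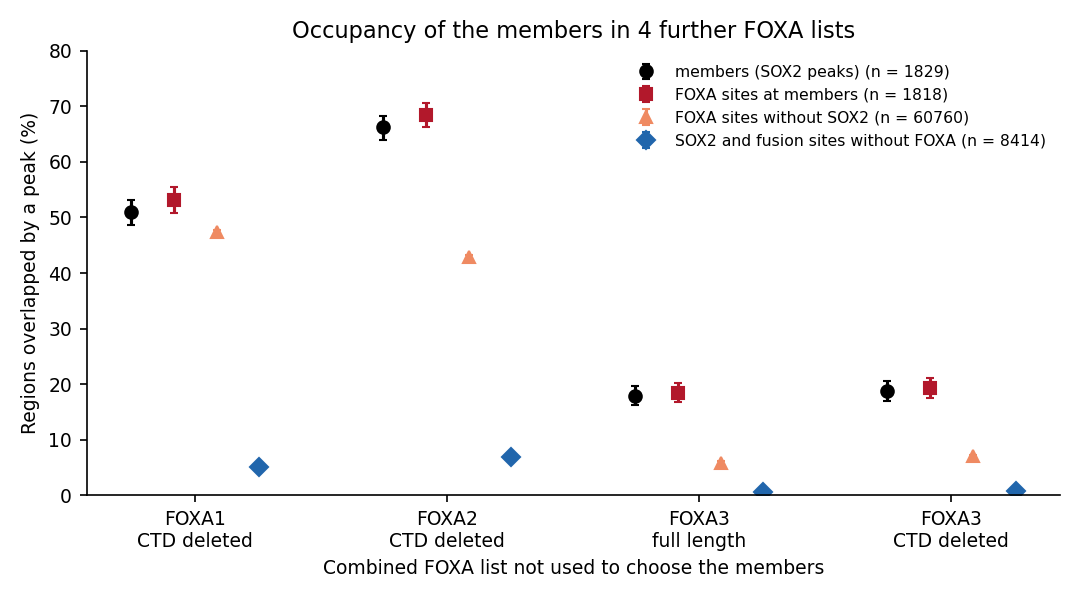
Share of regions overlapped by a peak (y, %, Wilson 95% interval) of each of 4 FOXA lists not used to choose the sites (x), for shared sites as SOX2 peaks (members, black), as merged FOXA sites (red), for FOXA sites without SOX2 (orange) and for SOX2 and fusion sites without FOXA (blue). The gap between shared sites and FOXA sites without SOX2 is widest for CTD-deleted FOXA2, at 66.2% and 42.9%.

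Compared with FOXA1 or FOXA2 sites that SOX2 did not share, CTD-deleted FOXA2 was listed 23.3 percentage points more often (Newcombe 95% interval 21.1 to 25.5), and more often on 23 of 23 chromosomes. Full-length FOXA3 stood 12.0 points higher (10.3 to 13.8) and CTD-deleted FOXA3 11.8 points higher (10.0 to 13.6), each on 21 of 23 chromosomes. For CTD-deleted FOXA1 the difference was 3.53 points (1.21 to 5.85), higher on 15 of 23 chromosomes. Its sign moved with the setting. It was −9.94 points (−13.9 to −6.19) within the strongest 25% of FOXA sites and −30.4 points (−49.0 to −11.1) at the strict limits, with 23 sites. Among sites also in the combined fusion list it was −2.32 points (−7.12 to 2.57), an interval that spans 0. With 50% reciprocal overlap it was −6.38 points (−9.85 to −2.74). That rule sets SOX2 peaks, of median width 322 bp at shared sites, against CTD-deleted FOXA1 peaks of 628 bp, and the part of width was not tested. Outside the longest interval without an annotated gene on each chromosome the difference was 9.21 points (6.70 to 11.7). Measured on merged FOXA sites on both sides, the shares were 68.4% against 42.9% for CTD-deleted FOXA2 and 53.1% against 47.4% for CTD-deleted FOXA1.

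The excess for CTD-deleted FOXA2 was present in each FOXA class. At sites of both full-length factors it was listed at 83.1% of the shared sites and 65.9% of FOXA sites without SOX2. At FOXA2-only sites the values were 62.8% and 40.3%, and at FOXA1-only sites 47.6% and 26.1%. CTD-deleted FOXA1 differed less in every class, at 76.1% against 74.2%, 39.8% against 36.1% and 42.1% against 39.1%. Of the 979 FOXA2-only shared sites, 275 lay in the longest interval without an annotated gene on their chromosome. Over all 282 shared sites in such intervals CTD-deleted FOXA1 was listed at 13.8% and CTD-deleted FOXA2 at 77.0%. The classes were not compared without these sites, so both FOXA2-only differences include them. CTD-deleted FOXA3 stood at 33.8% against 14.1%, 11.2% against 4.49% and 16.4% against 4.15%.

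FOXA sites that held a fusion peak or a SOX2 peak, but not both, lay in between in 3 of the 4 lists, and not for CTD-deleted FOXA1. At 3568 FOXA sites with a fusion peak and no SOX2 peak, CTD-deleted FOXA2 was listed at 54.4% (52.7 to 56.0) and full-length FOXA3 at 11.1% (10.1 to 12.1). At 764 FOXA sites that held a SOX2 peak but were no shared site the shares were 60.1% (56.6 to 63.5) and 13.7% (11.5 to 16.4). At the 1818 merged FOXA sites under a shared site they were 68.4% (66.3 to 70.5) and 18.4% (16.7 to 20.3). FOXA sites that had neither SOX2 nor the fusion were lowest, at 42.2% and 5.58%. CTD-deleted FOXA3 had the same order, at 13.1%, 14.1%, 19.3% and 6.62%. For CTD-deleted FOXA1 the sites with neither, at 47.6%, stood above those with the fusion alone (44.4%) and with SOX2 alone (39.8%), and below the 53.1% under a shared site. These classes differed in how many sites lay in the longest interval without an annotated gene on a chromosome. The shares there were 2.23% with neither, 5.75% with the fusion alone, 31.3% with SOX2 alone and 15.4% under a shared site. The order of the classes outside these intervals was not tested.

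SOX2 and fusion sites without FOXA1 or FOXA2 held little of the other FOXA lists: 5.05% for CTD-deleted FOXA1, 6.89% for CTD-deleted FOXA2, 0.594% for full-length FOXA3 and 0.701% for CTD-deleted FOXA3. These sites were chosen for having no full-length FOXA1 or FOXA2 peak, which bears on their overlap with related lists. Counting all lists, 132 shared sites (7.22%) were in all 6 FOXA lists, 139 in 5, 280 in 4, 396 in 3, 503 in 2 and 379 (20.7%) in 1 only. The FOXA3 lists, which have most of their peaks in common, are counted separately here.

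Few shared sites appear in the combined SOX2 list, which holds 236 peaks on the chromosomes and stretches considered. It overlapped 95 shared sites (5.19%, 4.27 to 6.31), 55 of 8414 SOX2 and fusion sites without FOXA (0.654%) and 1.32% of all SOX2 peaks. The combined fusion list, with 6113 peaks, overlapped 404 shared sites (22.1%, 20.2 to 24.0), 13.1% of sites without FOXA and 12% of all SOX2 peaks. The combined lists include the first replicate, so these values are no independent test. They end at unlike IDR limits, 0.10 for SOX2 and 0.92 for the fusion, and a site missing from them may still have had signal in the second replicate. Sites in gene-free stretches weighed on the SOX2 share: without them it was 2.59% (40 of 1547) against 0.614%.

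A gene-free stretch here is the longest interval without an annotated gene on a chromosome, 164.4 Mb in all, which on many chromosomes surrounds the centromere. Sites far from genes elsewhere count as outside, such as those at chr21:12122952-12176752, 1448870 bp from a coding gene. These stretches held 282 of the shared sites (15.4%, 13.8 to 17.1), 3.23% of the SOX2 and fusion sites without FOXA and 30.9% of the SOX2 and FOXA sites without the fusion. FOXA2-only sites were 275 of the 282, and CTD-deleted FOXA2 was listed at 77.0% of them against 13.8% for CTD-deleted FOXA1. Outside the stretches CTD-deleted FOXA2 stood at 64.3% and CTD-deleted FOXA1 at 57.7% of 1547 shared sites, and the differences from FOXA sites without SOX2 were 21.1 points (18.7 to 23.5) and 9.21 points (6.70 to 11.7). The weak overall excess for CTD-deleted FOXA1 is thus larger once these sites are left out, and that for CTD-deleted FOXA2 is close to its value over all sites.

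By chromosome, the share of SOX2 peaks that were shared sites ran from 5.71% on X (4 of 70) to 34.6% on chromosome 19 (37 of 107). On chromosome 19 only 1 of these 37 lay outside its gene-free stretch, where 20 SOX2 peaks remained. Outside the stretches the shares ran from 5.00% on chromosome 19 to 16.2% on chromosome 22, with only 1 shared site behind the lowest. On chromosome 22 the stretch ends at 10685646 and holds no shared site. Between 14000001 and 15000000 there, 8 of 13 SOX2 peaks were shared sites, and they count as outside.

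**Figure D4:**
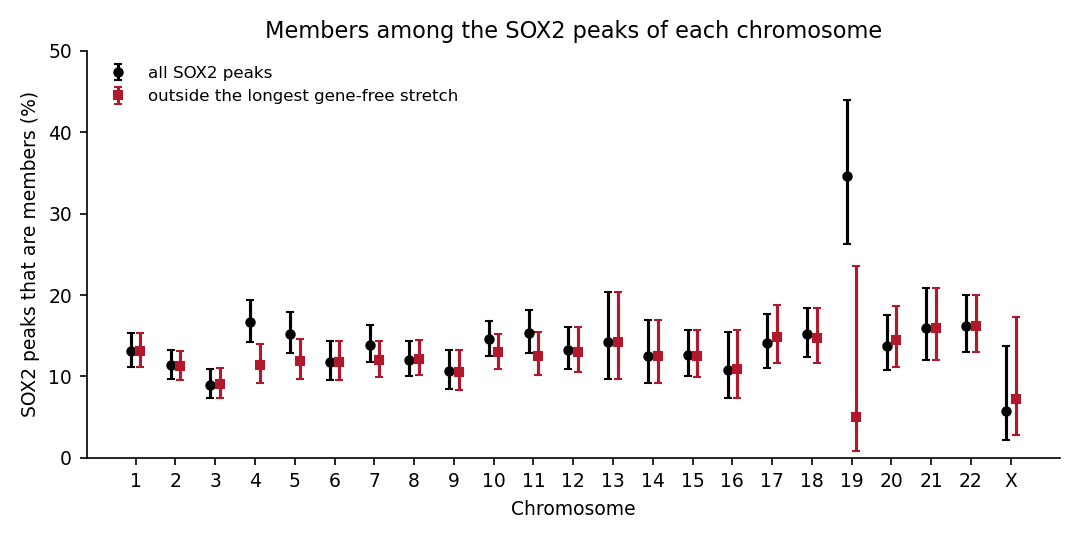
Share of first-replicate SOX2 peaks that are shared sites (y, %, Wilson 95% interval) on each chromosome (x), for all SOX2 peaks (black) and for those outside the longest gene-free stretch (red). Chromosome 19 stands at 34.6% with its stretch and at 5.00% without it, and the other autosomes lie between 8.93% and 16.7%.

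Along the chromosomes 429 of the shared sites (23.5%, 21.6 to 25.5) had another within 50 kb, or 15.3% outside the stretches, against 44.4% of the more numerous sites without FOXA. They formed 1561 loci, of which 1400 were single sites and 46 held 3 or more. The largest locus, with 13 shared sites among 21 SOX2 peaks, spanned chr4:50369692-50621955 in a gene-free stretch. Outside the stretches the largest held 5 within TANC2, a synaptic scaffold gene, at chr17:62968479-63036494.

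In windows of 1 Mb outside the stretches the most shared sites lay on chromosome 18 between 3000001 and 4000000, with 13 of 51 SOX2 peaks and 68 FOXA sites, which holds part of DLGAP1, another synaptic scaffold gene. A window of chromosome 22 from 28000001 to 29000000, which holds part of TTC28, held 9 of 50 SOX2 peaks and 84 FOXA sites. A second on chromosome 22, from 26000001 to 27000000, held 9 of 27 SOX2 peaks and 77 FOXA sites, and one on chromosome 21 from 28000001 to 29000000 held 9 of 26 and 83. The median window held 4 SOX2 peaks and 23 FOXA sites, so these windows were dense in both. The 100 windows densest in SOX2 peaks held 19.4% of SOX2 peaks, 21.0% of shared sites and 7.92% of FOXA sites. Copy number of these segments was not measured here.

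Most shared sites were far from any transcription start with a promoter window. These windows cover 15712 of 19974 protein-coding genes, so a start without a window can lie closer and is not counted. Over the 22 chromosomes with promoter windows, which leave out chromosome 8, 95 of 1725 shared sites had a start of a protein-coding gene within 1 kb of the SOX2 summit (5.51%, 4.53 to 6.69), against 2.37% of all SOX2 peaks. At SOX2 and fusion sites without FOXA the share was 1.25% (98 of 7840), a difference of 4.26 points (3.24 to 5.46), higher on 18 of 22 chromosomes. It was 2.48% at SOX2 peaks with neither and 6.44% (4.89 to 8.44) at SOX2 and FOXA sites without the fusion, which did not differ from the shared sites beyond the interval of the difference (−3.16 to 1.01 points). Outside the gene-free stretches that difference, shared minus other, was −2.96 points (−6.07 to −0.294). FOXA sites without SOX2 stood at 4.42%, and those with a fusion peak and no SOX2 peak at 14.2%, which is 8.66 points above the shared sites (interval of the difference, shared minus other, −10.2 to −7.02). Closeness to a start thus went with FOXA among SOX2 peaks, while among FOXA sites it was highest where the fusion was listed alone. With 50% reciprocal overlap the difference from sites without FOXA was 0.408 points (−0.430 to 1.77), an interval that spans 0.

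**Figure D5:**
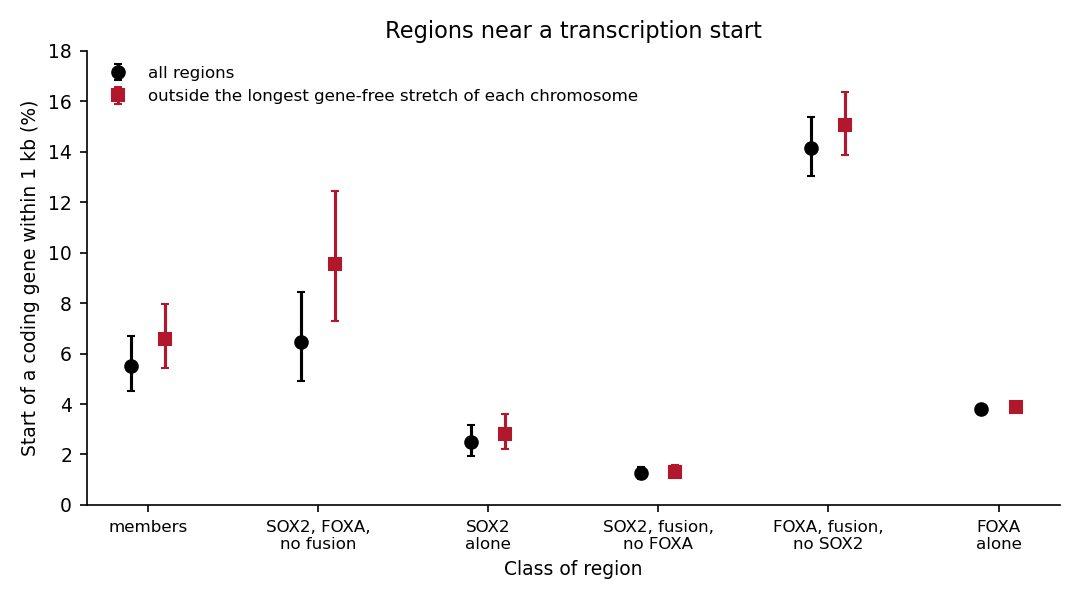
Share of regions with a start of a protein-coding gene within 1 kb of the summit (y, %, Wilson 95% interval) in 6 classes of region (x; members are the shared sites), over all regions (black) and outside the longest gene-free stretch of each chromosome (red). Shared sites stand at 5.51%, above the 1.25% of SOX2 and fusion sites without FOXA and below the 14.2% of FOXA sites with the fusion alone.

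The FOXA classes differed in position. A start lay within 1 kb of 10.1% of FOXA1-only shared sites (7.10 to 14.1), 6.80% of those with both (4.91 to 9.35) and 3.42% of FOXA2-only sites (2.43 to 4.78). Outside the gene-free stretches the FOXA2-only share was 4.83% (3.44 to 6.74). The summit lay inside a protein-coding gene at 735 shared sites (40.2%, 38.0 to 42.5), against 40.9% of sites without FOXA. With the gene-free stretches left out, the values were 47.5% and 42.3%, a difference of 5.25 points (2.55 to 7.96). The nearest start with a promoter window was over 50 kb away from 66.6% of the shared sites. Starts without a window are missed: at the site within SOX9 the nearest one counted was 966922 bp away. Exons and introns could not be told apart with the gene table used.

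The strongest shared sites, by the lower of the SOX2 and fusion fold enrichments, held full-length FOXA1 in 1 of the first 10 and full-length FOXA2 in all 10. First was a site within MYO18B, a muscle myosin gene, at chr22:25919276-25920112, with a SOX2 fold enrichment of 8.64, a fusion fold enrichment of 17.9 and full-length FOXA2 at a −log10 p of 2.34. No other FOXA list held it. The second, at chr14:16898852-16899108, is 1702140 bp from the nearest coding gene, OR11H12. It had 8.10 for SOX2 and 7.95 for the fusion, and FOXA2 was listed at full length (9.80) and without its CTD (7.61). Within PDZRN4, at chr12:41304288-41305056, SOX2 stood at 7.34 and the fusion at 9.85, and within SYT16, a synaptotagmin gene, at chr14:61891208-61891572, at 6.94 and 7.57. Both had full-length FOXA2 alone, at a −log10 p of 1.74 and 1.59, close to the lowest value in that list, 1.52.

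Among these first 10 the site within VPS13C, a lipid transfer protein gene, at chr15:61888203-61888765 had 6.94 for SOX2 and 10.0 for the fusion. There the CTD-deleted forms of FOXA1 (7.96) and FOXA2 (7.18) exceeded full-length FOXA2 (2.20) in −log10 p. Within ARAP2, an Arf GTPase-activating protein gene, at chr4:36162273-36163084 SOX2 stood at 6.74 and the fusion at 7.34. Here CTD-deleted FOXA1 was at 12.5, full-length FOXA2 at 8.64 and CTD-deleted FOXA2 at 3.96. The only one of the 10 with full-length FOXA1 was at chr7:10225198-10225613, 706464 bp from COXFA4, with 6.62 for SOX2, 7.88 for the fusion, FOXA1 at 5.46 at full length and 3.62 without its CTD, and full-length FOXA2 at 2.96. The other 3, near UQCRFS1, OR4C46 and EMB, lie in gene-free stretches. The second-ranked site, on chromosome 14, is also far from coding genes but counts as outside, because the stretch of that chromosome ends at 16024657. The site near UQCRFS1 (chr19:26978628-26978873) had the highest FOXA2 values, 21.9 at full length and 30.3 without its CTD, beside a SOX2 fold enrichment of 8.92 and a fusion fold enrichment of 7.61.

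Shared sites in all 6 FOXA lists began further down the order, with the site within ATXN1, a transcriptional corepressor gene, at chr6:16498117-16499138. SOX2 stood there at 6.13 and the fusion at 6.43, and the −log10 p was 12.2 for FOXA1, 21.3 without its CTD, 9.14 for FOXA2 and 21.0 without its CTD, and 16.4 for both FOXA3 forms. Near PHACTR1, an actin regulator gene, at chr6:12608067-12608907, SOX2 was at 5.13, the fusion at 7.80, FOXA1 at 6.48 and 6.81, FOXA2 at 4.11 and 10.2 (full length and CTD-deleted in each pair) and FOXA3 at 15.0. The site 128100 bp from PTGER4, a prostaglandin receptor gene, at chr5:40551674-40552151 had 4.94 for SOX2 and 6.91 for the fusion, and near SEMA6A, at chr5:116645554-116646384, the values were 4.93 and 6.20. Others of the first 10 were within PCDH15 (chr10:55141836-55142126, 4.75 and 4.90), within CDKL4 and 861 bp from a start (chr2:39229825-39230827, 4.59 and 5.75), and on chromosome 8 within MRPS28 and PSD3 and nearest to MMP16. In all 10 the CTD-deleted form of FOXA2 had a higher −log10 p than the full-length form, and p values of separate lists also move with depth.

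Another of these 10 lay near TWIST1, a bHLH factor of mesenchymal cells, at chr7:19060808-19061248, 51874 bp from the gene. SOX2 stood at 4.94 and the fusion at 4.90, FOXA1 at a −log10 p of 13.01 and 14.9 without its CTD, FOXA2 at 5.86 and 13.6 without its CTD, and both FOXA3 forms at 11.7. It is the one site named here that is both in all 6 FOXA lists and at a gene of the lists below.

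Genes of 4 lists (within 100 kb) were few among the shared sites. The AP-1 and TEAD list, stress and growth-control factors and their targets, had 2 of 24 genes, CCN1 and ATF3, with 1 site each (0.109% of shared sites, 0.0439% of all SOX2 peaks). Near CCN1, 530 bp from the gene at chr1:85584310-85584665, SOX2 was at 3.31 and the fusion at 4.38, full-length FOXA2 at 3.84 and its CTD-deleted form at 11.1, and CTD-deleted FOXA1 at 10.9. Within ATF3, at chr1:212596378-212596983, the SOX2 fold enrichment was 2.09 and that of the fusion 4.65. The osteoblast and mesenchymal list had 3 of 24 genes, TBX15, TWIST1 and SOX9, again with 1 site each (0.164% against 0.124%). TBX15 (chr1:119008927-119009535) had 4.94 for SOX2 and 5.97 for the fusion, and SOX9 (chr17:72125303-72126064), a chondrocyte regulator, 4.01 and 5.35.

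The endoderm list had 2 of 19 genes (0.109% against 0.0585%). The site within HNF4A, a nuclear receptor of liver and gut, at chr20:44398215-44398547 had 3.13 for SOX2 and 3.49 for the fusion, and CTD-deleted FOXA1 stood there at a −log10 p of 11.3. The other was within FOXA1 itself, at chr14:37591968-37592165 and 3108 bp from a start, with 3.06 for SOX2 and 4.14 for the fusion. It was in the full-length FOXA1 list alone among FOXA lists (5.53) and in both combined SOX2 and fusion lists (3.62 and 5.86). FOXA1 is a gene of an induced factor, although not of the factor in the SOX2 lines. No shared site overlapped FOXA2, FOXA3 or SOX2.

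The pluripotency and neural list had most, 8 sites at 4 of 25 genes, MEIS1, OTX2, SOX5 and SOX6 (0.437% against 0.197% of all SOX2 peaks and 0.190% of sites without FOXA). Of these 5 were at SOX5, a gene of 1033 kb with 15 SOX2 peaks in all. The highest, at chr12:23757451-23757882, had 5.73 for SOX2 and 6.20 for the fusion with FOXA2 at 1.59, and the next, at chr12:23889026-23889300, had 4.66 and 4.52 with FOXA1 at 3.98 and FOXA2 at 1.78. The site over the SOX5 promoter shown above was the third. Counts over genes move with gene length: the genes with most shared sites were TTC28 (10), DLGAP1 (8), PCDH15 (8) and LINGO2 (6), which span 702 to 1825 kb.

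A small set stood in both combined lists as well. Of the shared sites 58 overlapped the combined SOX2 list and the combined fusion list, 19 of them outside the gene-free stretches. In these 19 the fusion was above SOX2 at 13 (68.4%), near the 65.6% of all shared sites. CTD-deleted FOXA2 was listed at 13 (68.4%), near the 64.3% of shared sites outside the stretches. CTD-deleted FOXA1 was listed at 2 (10.5%), against 57.7% there, and 7 had a start within 1 kb (36.8%), against 6.58% there. The 19 include the ADRM1 promoter shown above and sites 193 bp from a start of INTS1, a subunit of the Integrator complex (chr7:1504460-1504777; SOX2 2.62, fusion 3.51), 87 bp from one of LTN1, a ribosome quality-control ligase (chr21:28992919-28993134; 3.64 and 2.98), and 91 bp from one of BMS1, a ribosome assembly factor (chr10:42782668-42782865; 2.92 and 3.99). The SOX2 fold enrichment over the 19 ran from 2.29, within GALNT9, to 5.26, near GRAP. These were singled out after their values were seen.

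At the edge of the choice, 8 shared sites had an overlap of at most 10 bp with the fusion or FOXA peak. The smallest were 2 bp with FOXA within NIPBL, a cohesin loader gene (chr5:36932469-36932759; SOX2 2.79, fusion 2.65), and 4 bp with the fusion near PCDH17 (chr13:57558141-57558338; 2.91 and 3.24). Just outside, 40 SOX2 and fusion sites lay within 100 bp of a full-length FOXA peak. The nearest had a gap of 1 bp, within DNAJC6 (chr1:65380164-65380455; SOX2 3.72, fusion 4.38), and 2 bp, within NBAS (chr2:14933076-14933303; 3.32 and 3.09). All 8 of these fold enrichments lay between 2.65 and 4.38.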

How the data were processed

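Flag ChIP-seq of 8 groups with an induced factor (2 replicates each) and 1 input was measured in U2OS cells; groups come from the sample titles. The submitters' processing notes name FastQC 0.10.1, Trim Galore, Bowtie2 2.4.4, SAMtools 0.1.18, MACS2, deepTools 2.4.1 and the build hg38, without roles. Of 14 deposited peak lists 10 were used, and 4 were byte-for-byte copies. The deposited combined lists have the layout of the IDR program: a score (125 times log2 of 1 over the IDR), the −log10 p of the peak, which is the lower of both replicates, and the summit. The deposited first-replicate lists give the authors' fold enrichment (a ratio of signal to the background nearby) beside −log10 p and −log10 q. The control and the thresholds are not given in the sources used here. The treatment labels give doxycycline at 500 ng/ml and the extraction protocol gives 500 ng/ul; this conflict was not resolved.

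Overlap meant at least 1 bp. FOXA1 and FOXA2 full-length peaks were merged into FOXA sites, each with the summit and strength of its strongest peak. Where several peaks overlapped a region, the strongest was taken. Shares have Wilson and differences Newcombe 95% intervals, and medians have binomial ones (Python 3.11.15, numpy 2.4.6, pandas 2.3.3, scipy 1.17.1); overlap calls were tested on simulated data. With 1 list a group no test over samples was possible, depth is unknown, and no p-value was computed. Gene ends and promoter windows come from RefSeq tables of GRCh38.p14 (19974 protein-coding genes; no exons; promoter windows of 15712 genes with none on chromosome 8, so shares near a start leave that chromosome out). No genome was read, so the planned motif windows at summits were not computed and letters were searched in promoter windows alone.

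The sites and gene lists were chosen with earlier results of these data known. Named sites follow a rule: the 10 highest by the lower of both fold enrichments, the 10 highest in all 6 FOXA lists, the 3 highest of each gene list, those at the genes of the factors, the smallest overlaps and gaps, and the extremes of the fusion to SOX2 ratio; promoters shown, and sites in both combined lists, were chosen after their values were seen. Alternatives changed the overlap, the thresholds, the FOXA lists, the strength of FOXA sites, the genes and the distances.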

Additional observations from a re-analysis of the deposited data

Results flagged for a closer look

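Outside the chromosomes used, 18 of 189 first-replicate SOX2 peaks on other contigs (9.52%) overlapped both a fusion peak and a full-length FOXA1 or FOXA2 peak. In the 2 stretches left out on chromosomes 1 and 13, 59 of 111 SOX2 peaks did (53.2%), against 13.4% of the SOX2 peaks considered. Both counts were singled out as signal in data that the comparisons leave out, and their cause was not tested.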

How the results depend on the processing

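No paired analysis was possible because each group has 1 combined list and no result comes from a test over samples; for the same reason no replicate could be left out. The motif alternatives at summits were not run, since no genome was read. Of 56 alternative values for differences and for the fusion to SOX2 ratio, 51 kept the sign. Values that left the interval of the reported one are given below, in the order share of SOX2 peaks that are shared sites (%), differences from FOXA sites without SOX2 (points), differences from sites without FOXA (points), median log2 ratio, median summit distances (bp), share with a neighbour (%). With 50% reciprocal overlap the share was 5.09%. CTD-deleted FOXA1 stood at −6.38, CTD-deleted FOXA2 at 15.1, FOXA3 at 10.0 and CTD-deleted FOXA3 at 8.51. The combined SOX2 list stood at 6.73 and starts at 0.408, and the distances were 51.5 to the fusion and 57 to FOXA. With the SOX2 summit inside the other peaks the share was 11.0%, CTD-deleted FOXA2 25.9, and the distances 59 and 86. At a q of at most 1e-05 and an IDR of at most 0.05, with 23 sites left, the share was 16.9%. The 4 FOXA differences were −30.4, 30.4, 45.2 and 43.1, the SOX2 list 43.0 and starts 0; the ratio was 0.011, the distances 12 and 11, and 8.70% had a neighbour. Requiring both FOXA1 and FOXA2 gave 3.94%, CTD-deleted FOXA2 17.2, FOXA3 19.2, CTD-deleted FOXA3 19.7, the SOX2 list 2.69, starts 5.55, a fusion distance of 81 and 5.19% with a neighbour. Within the strongest 25% of FOXA sites CTD-deleted FOXA1 stood at −9.94, FOXA3 at 19.8 and CTD-deleted FOXA3 at 18.4. An IDR of at most 0.01 in the CTD-deleted lists gave 14.5 for CTD-deleted FOXA2, and neighbours within 10 kb gave 9.08%. Chosen after seeing the data, leaving out the gene-free stretches gave 12.3%, CTD-deleted FOXA1 9.21, the SOX2 list 1.97, the fusion list 6.70, a ratio of 0.17, distances of 81 and 135 and 15.3% with a neighbour. Also chosen after seeing the data, sites in the combined fusion list gave 2.95%, CTD-deleted FOXA1 −2.32, FOXA3 18.8, CTD-deleted FOXA3 17.3, starts 8.39, a ratio of 0.21 and 18.3% with a neighbour. Where a sign turned, the cause was not tested.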
